A study of Mus musculus with 6 samples.

Results

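The p53 family and its direct target genes were compared between fetal and adult basal mammary cells of the mouse. The set held 10 genes: the 3 family members Trp63, Trp73 and Trp53, and the targets Perp, Cdkn1a, Mdm2, Ccng1, Phlda3, Sesn1 and Eda2r. It was defined by gene symbol, with earlier results of these data known, and its members were found on the arrays through the transcript accession of each probe. All 10 genes had a probe, of 20660 genes with a probe in all, and 15 of 27235 gene-matched probes belonged to them. RNA was measured on 6 one-color Agilent arrays, which report the brightness of spots of gene-specific oligonucleotides. The first group was 3 samples of E18.5 fetal mammary cells, sorted as CD31-CD45-Ter119-EpCAM++CD49f+ after a short digestion. The second was 3 samples of adult basal cells from females of 8–12 wk, digested overnight. These were sorted for EpCAM+CD49f+ cells after exclusion of BP-1+ cells and of the same CD31, CD45 and Ter119 lineages. Both groups were of the strain C57Bl6J, with no transgene or treatment named. Levels below are quantile-normalized log2 intensities, means are given ± SD (n = 3), and differences are fetal minus adult basal, so that a negative value means a higher level in adult basal cells.

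The transcription factor p53 is held at a low level by its ubiquitin ligase Mdm2, and DNA damage or other stress frees it to switch on genes for cell cycle arrest, repair and death. Its relatives p63 and p73 share its DNA-binding domain and bind similar sequences. p63 is best known as a master regulator of stratified and basal epithelium, the mammary basal layer included, and both p63 and p73 are made from alternative promoters as forms with (TA) or without (ΔN) the amino-terminal transactivation domain. Which form a probe reports therefore matters for these genes.

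The p53 family binds DNA as a tetramer on a pair of short half-sites. The stretches of the members' promoters that match the p53 half-site consensus are shown here, and they were not used to choose the members. RefSeq promoter windows of assembly GRCm38.p6, from 250 bases before to 50 bases after each gene's start, were given for 8 of the 10 members (11 windows, with 2 each for Cdkn1a, Sesn1 and Trp73). Trp63 and Perp had none. Capitals mark the 10 letters of a half-site, which reads as the same consensus on both strands, and all sequences run 5′ to 3′ on the gene's strand.
Cdkn1a, chr17:29090891-29090952, plus strand: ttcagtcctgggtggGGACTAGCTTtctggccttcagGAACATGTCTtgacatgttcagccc
Mdm2, chr10:117710920-117710959, minus strand: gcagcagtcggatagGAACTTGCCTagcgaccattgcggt
Ccng1, chr11:40755447-40755486, minus strand: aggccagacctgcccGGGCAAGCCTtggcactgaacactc
Sesn1, chr10:41887251-41887290, plus strand: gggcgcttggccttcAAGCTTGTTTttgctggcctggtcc
Trp53, chr11:69580269-69580308, plus strand: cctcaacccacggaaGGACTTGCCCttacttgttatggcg
The first marked half-site of Cdkn1a began 73 bases before the start of its upstream transcript and was followed by another marked one after 12 bases. Only exact matches were marked, so a near match, such as the 10 letters right after the second half-site of Cdkn1a, stays in small letters. Which of these letters p53 binds was not analysed. The half-sites of Trp53, Sesn1, Ccng1 and Mdm2 began 75, 173, 185 and 186 bases before their starts. In all, 5 of the 11 member windows held a half-site, against 8.36% of 32851 windows. A pair of half-sites at most 13 bases apart, as in Cdkn1a, was found in 24 windows (0.0731%). A match describes these letters and does not show binding, and the windows of Phlda3, Eda2r and Trp73 without a match say nothing about sites elsewhere.

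The members that passed the threshold below were higher in adult basal cells. A probe for Trp63 was 8.37-fold higher there, Phlda3 6.79-fold and Cdkn1a 4.38-fold, whereas a second probe for Trp63 and the probe for Trp53 lay at similar levels in both groups. A probe was counted as changed when it differed by at least 2-fold and its p in limma, Holm-adjusted over the 20448 probes above the low-signal boundary, did not exceed 0.05. Of the 15 member probes, 12 were above that boundary and 3 of these passed, all higher in adult basal cells. The share over all probes tested was 11.1% (5.18% higher in adult basal and 5.92% higher in fetal cells). With Benjamini-Hochberg adjustment in limma, 5 of the 12 passed, all higher in adult basal cells, against 30.0% of all probes. The arrays of the groups did not overlap for 10 of the 12 probes, 9 higher in adult basal and 1 higher in fetal cells. Over all probes this held for 69.0%, with 35.0% higher in adult basal and 34.1% in fetal cells, so that separation of the arrays by itself was common. The median difference was -0.79 over the 12 member probes and -0.03 over all probes tested. These 12 include more than 1 probe for Trp63 and for Trp73. With the brightest tested probe of each gene, as for the lists below, 2 of 9 members passed under Holm in limma (22.2%), Phlda3 and Cdkn1a. The median was then -0.40. A probe below the low-signal boundary in 1 group entered the test only through the group where it was high. This held for 2 of the 12 member probes, both of Trp73 and neither among the 3 that passed under Holm, and for 2022 of all probes. Trp73 probe A_52_P193555 was, however, among the 5 that passed with Benjamini-Hochberg adjustment. Over the 10 member probes above the boundary in both groups the median was -0.49, and over all such probes -0.04, of which 9.04% passed.

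**Figure D1:**
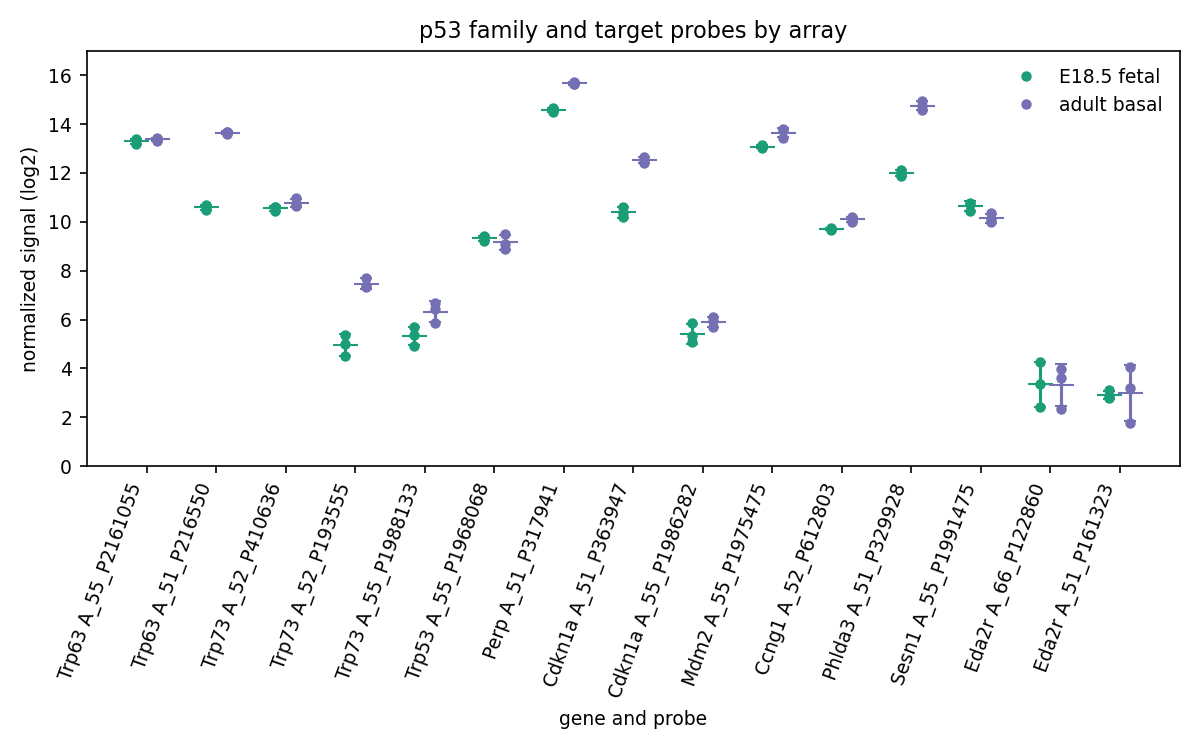
Normalized log2 intensity (vertical axis) of the 15 member probes (horizontal axis), with 1 point per array in green for E18.5 fetal and purple for adult basal samples, long horizontal lines at the group means and error bars of 1 SD. The groups lie far apart for Trp63 probe A_51_P216550, Phlda3 and Cdkn1a probe A_51_P363947, and overlap for Trp53 and Trp63 probe A_55_P2161055.

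Trp63, the p63 gene, was read by 2 matched probes that gave different answers. A further probe that the study's annotation assigns to Trp63 carries an accession that did not match the gene table used, and it was not analysed here. Probe A_51_P216550, designed on transcript NM_011641, read 10.61, 10.47 and 10.69 in the fetal samples and 13.69, 13.59 and 13.69 in the adult basal samples. Every adult basal array was about 3 log2 units above every fetal array, and the spread within each group was small (10.59 ± 0.11 against 13.65 ± 0.06). The difference was -3.06 (SE 0.10, 95% interval -3.31 to -2.82, Holm-adjusted p = 1.9e-04 in limma), which ranked 261 by p among all probes tested. Within the arrays of each slide the difference was -3.08 and -3.01.

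Probe A_55_P2161055, designed on transcript NM_001127261, read 13.38, 13.34 and 13.17 in the fetal and 13.31, 13.44 and 13.39 in the adult basal samples. These values overlapped, and the fetal samples were thus well above background for Trp63 transcripts that this probe detects. The difference was -0.08 (SE 0.10, 95% interval -0.33 to 0.16, Holm-adjusted p = 1 in limma). To compare the probes within an array, the log2 ratio of A_51_P216550 to A_55_P2161055 was taken. It was -2.77, -2.87 and -2.48 in fetal samples and 0.38, 0.15 and 0.30 in adult basal samples, a shift of -2.98 with no overlap. A two-sided exact permutation test gave p = 0.1, the smallest value possible for 3 arrays against 3. The shift shows unequal change of the 2 probes and does not give the amount of either transcript. RefSeq lists 8 curated transcripts for Trp63, and which of them each probe binds was not analysed here.

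Trp73, the p73 gene, was read by 3 probes, all designed on transcript NM_011642 and all well above background on the 6 arrays. RefSeq lists 3 curated transcripts for this gene. Probe A_52_P193555 read 4.99, 4.51 and 5.39 in fetal samples and 7.72, 7.33 and 7.37 in adult basal samples. All adult basal arrays were above all fetal arrays, with a difference of -2.51 (SE 0.23, 95% interval -3.05 to -1.97, 5.69-fold). The fetal mean of 4.97 lay below the low-signal boundary of 5.95, so the probe was tested through the adult basal group alone. This probe missed the Holm threshold (adjusted p = 0.166 in limma) and passed with Benjamini-Hochberg adjustment (adjusted p = 6.2e-05 in limma). It also passed under Holm in limma with a variance trend and robust estimation (adjusted p = 0.0478) and with an offset before the log2 (adjusted p = 0.0315), where the difference was -2.03. It did not pass under the other 13 of its 16 alternatives, with Holm-adjusted p = 1 in limma when no filter was used.

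The other Trp73 probes moved less. Probe A_55_P1988133, likewise below the boundary in fetal cells, read 5.69, 4.93 and 5.36 in fetal and 6.67, 6.44 and 5.86 in adult basal samples, without overlap (5.33 ± 0.38 against 6.32 ± 0.42, SE of the difference 0.26, Holm-adjusted p = 1 in limma). Probe A_52_P410636 read 10.62, 10.60 and 10.43 in fetal and 10.73, 10.96 and 10.64 in adult basal samples. The lowest adult basal array of this probe was 10.64 and the highest fetal array 10.62, so that the groups were barely apart (-0.23, SE 0.12, 95% interval -0.51 to 0.06). Relative to A_52_P410636 on the same array, A_52_P193555 shifted by -2.28 and A_55_P1988133 by -0.77 between fetal and adult basal samples. Relative to A_52_P193555, A_55_P1988133 shifted by 1.51. Each of these 3 ratios separated the groups, with p = 0.1 in the two-sided exact permutation test, again the smallest possible. Each ratio includes a probe above the low-signal boundary in adult basal cells only, so no conclusion is drawn from the test.

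**Figure D2:**
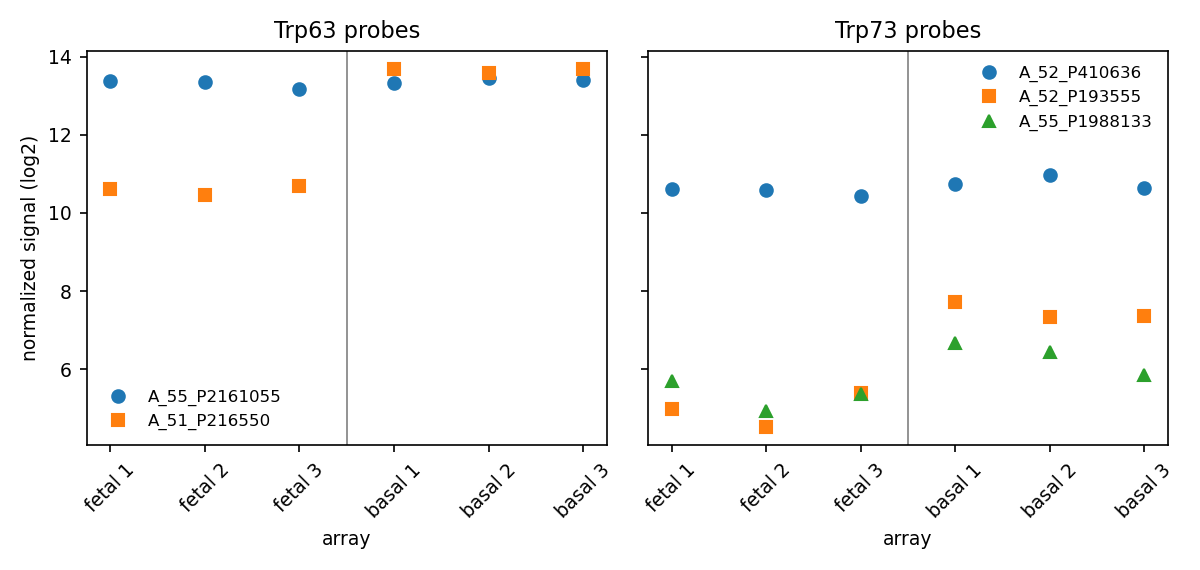
Normalized log2 intensity (vertical axis) of the 2 Trp63 probes (left) and the 3 Trp73 probes (right) on each of the 6 arrays, with 1 symbol per probe and a vertical line between fetal and adult basal arrays. Trp63 probe A_51_P216550 moves from a mean of 10.59 on fetal to 13.65 on adult basal arrays while A_55_P2161055 reads 13.30 and 13.38, and Trp73 probe A_52_P193555 moves from 4.97 to 7.47.

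Trp53, which encodes p53, was read by A_55_P1968068, the mean of 2 spots. Its values were 9.33, 9.20 and 9.43 in fetal and 9.51, 8.90 and 9.10 in adult basal samples. One adult basal array was above and the others below all fetal arrays, so the groups overlapped. The difference was 0.15 (SE 0.17, 95% interval -0.24 to 0.55, Holm-adjusted p = 1 in limma), an interval that leaves room for a small change in either direction. p53 is controlled largely through the stability and modification of its protein, which the arrays do not measure.

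Perp, a membrane protein of desmosomes and a target of both p53 and p63, read 14.60, 14.66 and 14.50 in fetal samples and 15.65, 15.72 and 15.62 in adult basal samples. The adult basal arrays lay about 1 log2 unit above the fetal arrays, with tight groups. The difference was -1.08 (SE 0.10, 95% interval -1.31 to -0.85, 2.11-fold) and missed the Holm threshold in limma (adjusted p = 0.158). It passed with Benjamini-Hochberg adjustment (adjusted p = 6.0e-05 in limma), and under Holm with a variance trend and robust estimation (adjusted p = 0.00701 in limma).

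Cdkn1a encodes p21, an inhibitor of cyclin-dependent kinases through which p53 arrests the cell cycle. Probe A_51_P363947, designed on NM_007669, was spotted 10 times on each array, with an SD between spots of 0.028 to 0.081 log2 units. It read 10.62, 10.20 and 10.35 in fetal samples and 12.48, 12.41 and 12.67 in adult basal samples. The groups were far apart relative to both the spots and the samples (10.39 ± 0.22 against 12.52 ± 0.13). The difference was -2.13 (SE 0.14, 95% interval -2.46 to -1.80, Holm-adjusted p = 0.0194 in limma), and -1.95 and -2.14 within the slides. With any 1 array left out the Holm-adjusted p of limma rose above the threshold (p from 0.0630 to 0.259) while the difference stayed between -2.26 and -2.04. A second probe, A_55_P1986282, designed on NM_001111099, was below the low-signal boundary and not tested. Its values of 5.31, 5.07 and 5.85 in fetal and 5.93, 6.11 and 5.68 in adult basal samples overlapped.

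Phlda3, a p53 target that restrains Akt signaling at the membrane, read 11.89, 11.93 and 12.14 in fetal samples and 14.96, 14.58 and 14.72 in adult basal samples. The lowest adult basal array was well above the highest fetal array. The difference was -2.76 (SE 0.13, 95% interval -3.08 to -2.45, Holm-adjusted p = 0.0022 in limma), ranked 830 by p, and it was -2.95 and -2.54 within the slides. Phlda3 and Trp63 probe A_51_P216550 passed under each of the 17 alternative settings that were run. The highest Holm-adjusted p for Phlda3 was 0.0492 in limma, reached without fetal sample 1.

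The feedback regulators and the remaining targets moved less. Mdm2, the ubiquitin ligase that p53 itself induces, read 13.06, 13.16 and 13.01 in fetal and 13.42, 13.75 and 13.79 in adult basal samples, a difference of -0.58 (SE 0.13, 95% interval -0.88 to -0.27). Ccng1, which encodes cyclin G1, a further part of the Mdm2 feedback, read 9.68, 9.75 and 9.69 in fetal and 10.01, 10.10 and 10.20 in adult basal samples, a difference of -0.40 (SE 0.10, 95% interval -0.63 to -0.16). For both genes every adult basal array was above every fetal array, yet Holm-adjusted p was 1 in limma and the changes were under 2-fold. Benjamini-Hochberg-adjusted p was 0.00596 for Mdm2 and 0.0103 for Ccng1 in limma.

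Sesn1, a stress-induced inhibitor of mTORC1 signaling, was the only member whose arrays lay entirely higher in fetal cells. It read 10.44, 10.78 and 10.74 in fetal and 10.12, 9.98 and 10.35 in adult basal samples. The difference was 0.50 (SE 0.14, 95% interval 0.16 to 0.84), with Holm-adjusted p = 1 and Benjamini-Hochberg-adjusted p = 0.0187 in limma. It was 0.20 on the first slide and 0.77 on the second.

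Eda2r, a receptor for the A2 form of ectodysplasin and a target of p53, had 2 probes near background. Probe A_66_P122860 was well above background on 1 of 3 arrays in each group, and A_51_P161323 on 0 of 3 fetal and 1 of 3 adult basal arrays. Neither was tested, and no order can be read from their values, which spread from 2.44 to 4.26 and from 2.81 to 3.11 in fetal samples, and from 2.34 to 3.98 and from 1.79 to 4.05 in adult basal samples.

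**Figure D3:**
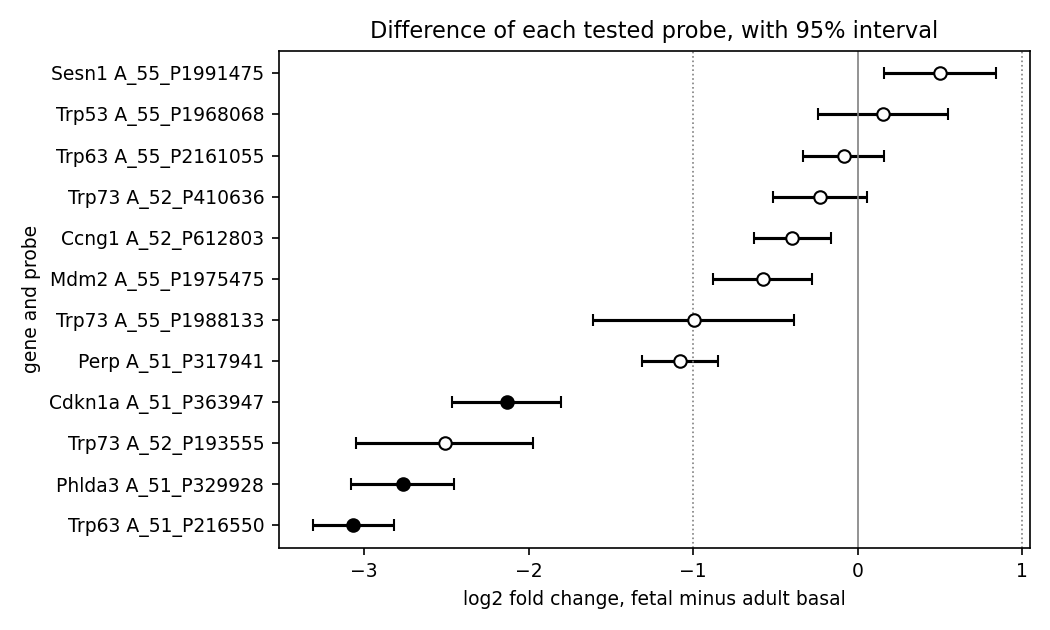
Difference in log2 intensity (fetal minus adult basal, horizontal axis) of the 12 tested member probes with 95% intervals from limma, filled for the 3 probes that passed under Holm, with dotted lines at 2-fold. The intervals of Trp53, Trp63 probe A_55_P2161055 and Trp73 probe A_52_P410636 include 0, Sesn1 lies above 0, and the remaining probes lie below 0, down to -3.06 for Trp63 probe A_51_P216550.

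Around these members, 3 lists of pathway genes were measured with 1 probe per gene. The first list held 22 regulators of p53, among them kinases, acetyltransferases and ubiquitin ligases. Of 21 tested, 1 passed under Holm, against 11.1% of all probes. This was Prkdc, the catalytic subunit of the DNA-dependent protein kinase, higher in fetal cells (8.56 ± 0.04 against 6.18 ± 0.30, a difference of 2.38, Holm-adjusted p = 0.019 in limma). Without any 1 of the 3 fetal arrays or without adult basal sample 3, no regulator passed, and 4.63% to 6.48% of all probes did. Mdm4, the partner of Mdm2, differed by -1.06 and Trp53bp2, a p53-binding protein chosen here after its value was seen, by 1.43, with Holm-adjusted p of 0.32 and 0.089 in limma. The median of the list was 0.10.

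The second list held 37 other targets of p53. Of 36 tested, 9 passed under Holm in limma (25%, against 11.1% of all probes), 5 higher in adult basal and 4 higher in fetal cells (5.18% and 5.92% of all probes), and the median was -0.49. Benjamini-Hochberg adjustment passed 21 (against 30.0% of all probes), with 13 higher in adult basal and 8 in fetal cells. Gdf15, a stress-induced cytokine of the TGF-β family, had the largest difference of the list, at 7.50 ± 0.44 in fetal and 14.84 ± 0.30 in adult basal cells (-7.33, Holm-adjusted p = 1.7e-04 in limma). Ephx1, microsomal epoxide hydrolase, differed by -2.94. Zfp365, a zinc finger protein, differed by -2.31, Gadd45a, a growth arrest and damage-inducible protein, by -1.58, and the nuclease Aen by -1.51.

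Of the 4 targets higher in fetal cells, Ckap2, a protein of the mitotic spindle, was at 10.25 ± 0.09 in fetal and 5.56 ± 0.25 in adult basal cells (4.69, Holm-adjusted p = 1.1e-04 in limma), and the spindle-associated Psrc1 differed by 3.64. Ckap2 was below the low-signal boundary in adult basal cells and was tested only through the fetal group, as were Dram1 and Rrm2b through the adult basal group. Over the 33 genes above it in both groups, 8 passed, 3 of them higher in fetal cells, with a median of -0.47. This was 24.2%, against 9.04% of all 18426 such probes, where 828 passed higher in fetal and 837 in adult basal cells. Btg2, an antiproliferative immediate early gene, differed by 2.45 and the kinase Plk2 by 2.31. Among death genes, which were picked here for their role, Bax differed by -1.05 and Bbc3 (Puma) by 0.37, and Pmaip1 (Noxa) by 3.55 with widely spread adult basal samples (SD 0.88). None of these 3 passed under Holm in limma (p of 0.39, 1 and 0.63). With Benjamini-Hochberg adjustment in limma, Bax and Pmaip1 passed (adjusted p of 1.2e-04 and 1.8e-04) and Bbc3 did not (0.065). The count of 9 fell to 5 without adult basal sample 3, and to 3, 2 and 4 without fetal samples 1, 2 and 3. The share over all probes fell as well, to 6.48% without adult basal sample 3. Without fetal samples 1, 2 and 3 it was 4.63%, 4.76% and 5.14%.

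**Figure D4:**
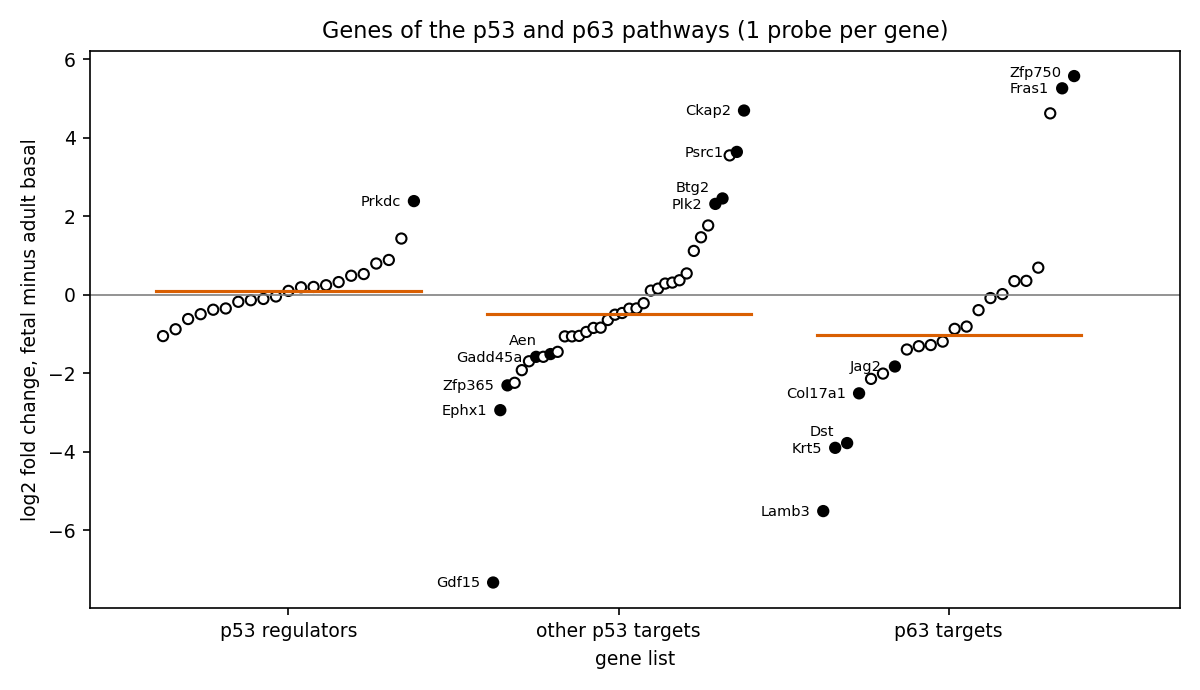
Difference in log2 intensity (fetal minus adult basal) of the genes of 3 lists, in rank order within each list, with filled points for genes that passed under Holm in limma and lines at the medians. The p53 regulators center near 0 (median 0.10), while the other p53 targets and the p63 targets extend in both directions, from -7.33 to 4.69 and from -5.51 to 5.57.

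The third list held 22 targets of p63 in stratified epithelium. All 22 were tested and 7 passed under Holm in limma (31.8%, against 11.1% of all probes), 5 higher in adult basal and 2 higher in fetal cells (5.18% and 5.92% of all probes), with a median of -1.03. Lamb3, a laminin chain of the epithelial basement membrane, was at 9.84 ± 0.18 in fetal and 15.36 ± 0.24 in adult basal cells (-5.51, Holm-adjusted p = 5.2e-05 in limma). The basal keratin Krt5 differed by -3.90. The hemidesmosome genes Dst and Col17a1 differed by -3.78 and -2.51, and the Notch ligand Jag2 by -1.83. In the other direction, Zfp750, a transcription factor of epidermal differentiation, was at 10.54 ± 0.11 in fetal and 4.98 ± 0.17 in adult basal cells (5.57, Holm-adjusted p = 1.0e-05 in limma), and the extracellular matrix gene Fras1 differed by 5.26. Both of these, and Cldn1, were below the low-signal boundary in adult basal cells and were tested only through the fetal group. Over the 19 genes above it in both groups, 5 passed, all higher in adult basal cells, with a median of -1.28. This was 26.3%, against 9.04% of all 18426 such probes, where 828 passed higher in fetal and 837 in adult basal cells. The basal keratin Krt14 read 13.78, 13.37 and 13.36 in fetal and 15.25, 13.39 and 15.46 in adult basal samples, where adult basal sample 2 lay near the fetal arrays (Holm-adjusted p = 1 in limma). Integrin α6 (Itga6), the CD49f antigen for which both populations were sorted, differed by 0.01. Of the 22 genes, 3 also stood on the list of basal markers.

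Markers of cell types and of cycling moved between the same samples. Of 12 basal mammary markers, 8 passed higher in adult basal cells and 0 in fetal cells, with a median of -3.49. Vim lay higher on every fetal array (1.15, Holm-adjusted p = 0.059 in limma) and passed by Benjamini-Hochberg adjustment. Their summed normalized signal was 994660, 945256 and 933471 on the adult basal arrays and 113837, 104987 and 100290 on the fetal arrays, and the brightest probe was that of Acta2 on the adult basal and of Vim on the fetal arrays. Brightness depends on the probe, so the brightest probe of a list is not a measure of its most abundant transcript. Of 14 luminal markers, 8 passed higher in fetal cells and 0 in adult basal cells (median 2.23), and the Krt18 probe was the brightest. Krt8 and Krt18 themselves differed by 0.44 and 0.58. Krt19, named after its value was seen, was higher in adult basal cells by Benjamini-Hochberg adjustment in limma (-1.22) and not under Holm (adjusted p = 1). Esr1, also named so, was well above background on 1 of 3 fetal and all 3 adult basal arrays. Of the 14 luminal markers, the arrays of 10 lay entirely higher in fetal and of 3 entirely higher in adult basal cells. Over all probes these shares were 34.1% and 35.0%. Of 14 proliferation genes, 13 passed higher in fetal cells (median 5.78), Mki67 by 5.98 and Top2a by 5.64. Their summed signal was 157346, 166423 and 171136 on fetal arrays and 17255, 17508 and 17244 on adult basal arrays, with the Pcna probe the brightest. Of these 3 lists, 1 basal, 2 luminal and 2 proliferation genes were tested through 1 group only. Without them 7, 7 and 11 passed (63.6%, 58.3% and 91.7%), against 9.04% of all probes above the boundary in both groups. The part of basal, luminal and cycling cells in the differences of Trp63, Phlda3, Cdkn1a and the pathway lists was not tested. In these bulk samples, fewer cells of a type and less RNA per cell cannot be told apart.

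Markers of other tissues and of handling were also read. Of 9 epidermis markers with a probe, 7 were tested and Krt10 passed (14.3%, against 11.1% of all probes), higher in fetal cells by 1.47. Krt1 differed by 1.95 (Holm-adjusted p = 0.16 in limma). The list median was 0.87. Sbsn, named after its value was seen, lay lower on every fetal array (-1.51, Holm-adjusted p = 0.24 in limma), and Krtdap, named likewise, lay higher (4.11, Holm-adjusted p = 1 in limma). Krt1 and Krtdap were below the low-signal boundary in adult basal cells. Krtdap was well above background on 2 of 3 adult basal arrays, so its difference is not exact. The summed signal of the epidermis list was 4095, 3436 and 3419 on fetal and 3430, 3877 and 3778 on adult basal arrays. The Krt10 and Sbsn probes were the brightest in turn. Of 9 fibroblast markers, Dcn and Pdgfrb passed (22.2%, against 11.1% of all probes), both higher in adult basal cells. Pdgfrb and Fap were tested through the adult basal group only. Without them 1 of 7 passed (14.3%), against 9.04% of all probes above the boundary in both groups. The summed signal of the list was 18058, 22136 and 28799 on adult basal and 6300, 6484 and 7949 on fetal arrays. The Dcn probe was the brightest on adult basal and the Col1a2 probe on fetal arrays, and Col1a1 and Col1a2 differed by -0.01 and -0.90. Of 8 leukocyte and 6 endothelial markers tested, 0 passed under Holm in limma, against 11.1% of all probes. An unadjusted limma p under 0.05 was found for 1 and 4 of them, against 13226 of all 20448 probes. With Benjamini-Hochberg adjustment in limma, 1 and 4 passed, against 30.0% of all probes. Of the genes that passed so, Lyz2 and 3 of the endothelial genes (Cdh5, Emcn and Esam) were tested through the adult basal group only. The medians were -0.11 and -1.59, and -0.06 and -0.14 over the 6 and 3 genes above the boundary in both groups. Ptprc and Cd3e, defining leukocyte genes, differed by -0.31 and -0.05, and the endothelial genes Pecam1 and Cdh5 by -0.14 and -2.70. Lyz2 and Laptm5, named after their values were seen, differed by -1.76 and -0.97, with widely spread adult basal samples (SD 1.21 and 1.11). Laptm5 was also tested through the adult basal group only. Of the 8 leukocyte genes, 7 had a negative and 1 a positive difference. The probes of Itgam and Kdr were the brightest of these lists. Of 12 immediate early and heat shock genes, Fosb passed (2.36, higher in fetal cells), which was 8.33%, against 11.1% of all probes. Fos differed by 1.99 (Holm-adjusted p = 0.058 in limma), and the list median was 1.30. The Jun probe was the brightest of this list on the fetal arrays. Digestion time differed between the groups and cannot be told apart from stage. The part of these markers in the members' differences was not tested.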

How the data were processed

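Samples were grouped by the labels as 3 E18.5 fetal and 3 adult basal, 1 array each. The labels and the study's methods both name low-input Quick Amp labelling, the methods in its whole-transcript exon form. The authors deposited spot intensity from Feature Extraction 11.0.1.1 (version from the submitters' processing notes), corrected for background and not normalized between arrays, and a table of log2 values that the authors quantile normalized in GeneSpring, used here as an alternative. Each of its columns followed its own array (correlation of deviations 0.971 to 0.995).

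Control spots and outlier spots (104 to 326 an array) were left out, spots of a probe were averaged as log2, and arrays were quantile normalized. The array design names mm9. Of 55681 probes, 27235 matched 1 gene by unversioned accession in a RefSeq table of GRCm38.p6, whose gene coordinates were not used. The scanner files gave no gene names to match. Probes below the lowest boundary of 3 k-means clusters (5.95, 100 starts, seed 1) in both groups were removed, which left 20448. The groups were compared by limma 3.58.1 (lmFit, eBayes) under R 4.3.3. For the lists, the brightest tested probe of each gene was used. Of the pathway lists, the text names up to 5 changed genes in each direction that exceeded background on the 6 arrays. Of each marker list it names the first 2 genes. Some further genes were named for their role or after their values were seen. Tables and plots used Python 3.11.15 with pandas 2.3.3, numpy 2.4.6 and matplotlib 3.10.9. The fit was tested on simulated data.

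The members, the 3 pathway lists and the 8 marker lists were chosen with earlier results of these data known. A gene of the list of other p53 targets is not reported here and was left out of its counts. Per array, 76.4% to 83.3% of probes exceeded background, and no spot was saturated. The 3 arrays in each group limit the precision. The labels call the samples of a group biological replicates and do not say which animals each came from, so p-values measure the spread between these samples. The alternatives covered normalization, background correction, filter, probe set, adjustment, variance model, offset, arrays left out, replicate number and slide.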

Additional observations from a re-analysis of the deposited data

How the results depend on the processing

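No member probe changed direction under those of the 17 alternatives that tested it. Trp73 probe A_52_P193555 was not tested under normexp, and A_55_P1988133 under neither normexp nor the offset of 16. Of 201 member probe results under them, 188 kept their side of the threshold, 8 lost it (all Cdkn1a) and 5 gained it (Trp73 and Perp). The main counts were 2270 for all probes, 3 of 12 for the member probes, 1 for the p53 regulators, 9 for the other p53 targets and 7 for the p63 targets. With no low-signal filter, 27235 probes were tested and the counts fell to 1182 for all probes, 0 for the regulators and 5 for the other targets. The share over all probes fell as well, to 4.34%. Benjamini-Hochberg adjustment gave 6133 for all probes, 5 for the members, 3 for the regulators, 21 for the other targets and 13 for the p63 targets. With a variance trend and robust estimation, 5 member probes, 2 regulators, 14 other targets and 11 p63 targets passed. An offset of 16 before log2 gave 2 regulators and 11 p63 targets. The share over all probes rose as well, from 11.1% in the main setting to 16.4% under each of these settings. Normexp correction, planned on the mean signal and run on the median, gave 2 regulators, against 16.9% of all probes. With the slide as a block, 5 other targets passed, against 7.54% of all probes. With 1 array left out, the counts ran from 948 (without fetal sample 1) to 1949 for all probes, 2 for the members each time, 0 to 1 for the regulators, 2 to 9 for the other targets and 5 to 7 for the p63 targets, with fewer samples in each fit.

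With the replicate number as a block, 1302 of all probes, 2 members (Cdkn1a was lost, Holm-adjusted p = 0.114 in limma), 0 regulators and 5 other targets passed. Samples of the same number deviated with correlations of -0.032, 0.0933 and 0.0488, so the numbers gave no pairing, and fetal samples 1 and 3 correlated best with another number. Cdkn1a was also lost with no filter (Holm-adjusted p = 0.147 in limma). Where counts moved, the cause was not tested. The alternative of probes tied by accession only was the same as the main setting and was not run.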
